A study of Rattus norvegicus with 48 samples.

Results

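The genes described here were 100 genes whose transcripts were lower in the left ventricle of methamphetamine-treated rats than of saline-treated rats at day 11, in females and in males, and whose level had an absolute Pearson r under 0.6 with that of the clock gene Arntl. They were chosen from the 32883 Ensembl genes in the deposited table. Genes with a mean normalised read count of at least 50 over 39 libraries, those collected after abstinence included, were ranked, which left 10701, and 293 of these were set aside because their log2 level had an absolute Pearson r of 0.6 or more with Arntl over the 20 libraries collected after abstinence. The 100 members were the genes, among the remaining 10408, whose larger day 11 ratio of the 2 sexes was lowest. The ratio was the log2 of the mean normalised read count with methamphetamine (Meth) over that with saline, with 1 added to each mean. The day 11 values therefore chose the members and are given as a description without a test, and the values after abstinence entered the choice through the minimum mean count and the exclusion by Arntl. Without their highest library 8 members would have a mean under 50, and for 7 of them that library was from methamphetamine-treated females after abstinence.

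All animals were Sprague Dawley rats. Females and males were injected subcutaneously, from 8 weeks of age, with saline or with methamphetamine at 5 mg/kg/day for 10 days, and hearts were collected either on day 11 (24 hours past the final dose) or after 30 days without injections (abstinence). The 8 groups of 6 rats gave 48 libraries, each from the left ventricle of 1 rat, and counts of 47 were at hand. The library without counts was from saline-treated females at day 11 and was not analysed here. In that group the paper excluded 1 library as an extreme outlier by its expression values. Day 11 and abstinence libraries were sequenced as separate pools, so time point and pool cannot be told apart, and in males at day 11 the saline-treated rats and the methamphetamine-treated rats came from separate ranges of rat numbers, which cannot be told apart from the treatment. The same held for males after abstinence.

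The libraries held between 6661581 and 11314050 assigned reads, with a median of 9020989. In the 8 libraries numbered replicate 5, the genes that mark sex went against the labels. Relative to the median male library, the summed level of 4 genes found to mark male hearts was 85.8% to 115% in the replicate 5 libraries labelled female and 7.31% to 12.1% in those labelled male. In the other 39 libraries it was 0% to 2.52% in females and 70.9% to 116% in males. The replicate 5 libraries were left out of the choice of members, of all group means and of the tests, and are given as single values below.

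The extracellular matrix of the heart is a network of collagens, elastic microfibrils and adhesive glycoproteins, laid down mostly by fibroblasts, crosslinked by enzymes outside the cell and remodelled by proteases. Endothelial cells line its dense capillary bed and share a basement membrane with the myocytes. Arntl encodes Bmal1, which together with Clock drives the circadian loop, and because many cardiac transcripts follow that loop over the day, genes with an absolute r of 0.6 or more with Arntl were set aside.

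Symbols were at hand for 26 of the 100 members, from tables in which the study listed genes it had called on these libraries, so the named members are not a random draw from the 100. Most of the genes that the study called were called in females only. The other 74 are known by identifier only. Of the 26, 7 were on lists of matrix genes. Spon2 (a secreted matrix glycoprotein), Fbn1 (fibrillin-1, the backbone of elastic microfibrils), Emilin1 (an elastic fibre glycoprotein) and Col6a2 (a chain of the microfibrillar collagen VI) were structural. Loxl1 (an amine oxidase that crosslinks elastin) and Plat (tissue plasminogen activator) act on the matrix or its proteolysis, and Col4a1 is a chain of the basement membrane collagen IV. Cd93 (an endothelial transmembrane receptor), Bcl6b (a transcriptional repressor), Pcdh12 (an endothelial protocadherin) and Unc5b (a netrin receptor) are known from endothelium, and Tgm2 encodes transglutaminase 2, which crosslinks proteins. The remaining named members included Cnn2 (the actin-binding calponin 2), Tes (testin, at focal adhesions), Sat1 (the enzyme that acetylates spermidine and spermine), Fads1 (a fatty acid desaturase), Nbl1 (a secreted BMP antagonist), Fxyd6 (a regulator of the sodium pump), Tppp3 (a tubulin-binding protein) and Wsb1 (a substrate receptor of a ubiquitin ligase).

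The promoters of the 3 named matrix members with the lowest day 11 ratios are shown because the results for the matrix are described first for these genes. They are the 250 bases before the annotated start, read 5′ to 3′ on the strand of the gene, from RefSeq on GRCr8, at chr14:81736466-81736715 (plus strand) for Spon2, chr8:67612225-67612474 (minus strand) for Loxl1 and chr3:133203391-133203640 (minus strand) for Fbn1. Capitals mark matches, on either strand, to the motifs described next.
Spon2: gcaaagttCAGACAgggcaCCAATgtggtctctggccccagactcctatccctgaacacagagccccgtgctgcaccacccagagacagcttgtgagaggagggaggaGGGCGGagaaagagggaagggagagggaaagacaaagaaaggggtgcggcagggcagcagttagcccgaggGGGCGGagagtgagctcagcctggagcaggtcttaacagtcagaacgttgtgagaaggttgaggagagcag
Loxl1: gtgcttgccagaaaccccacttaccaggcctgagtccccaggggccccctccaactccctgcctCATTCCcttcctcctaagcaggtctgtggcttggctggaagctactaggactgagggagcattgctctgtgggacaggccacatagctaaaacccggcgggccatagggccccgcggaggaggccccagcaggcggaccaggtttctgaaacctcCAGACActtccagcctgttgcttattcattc
Fbn1: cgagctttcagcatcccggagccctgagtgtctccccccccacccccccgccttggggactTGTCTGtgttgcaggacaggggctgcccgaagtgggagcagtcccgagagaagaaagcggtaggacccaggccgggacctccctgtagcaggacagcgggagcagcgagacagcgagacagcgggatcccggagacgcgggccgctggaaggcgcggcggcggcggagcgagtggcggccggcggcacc

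RefSeq promoters were matched by symbol for 17 of the 26 named members, which gave 18 promoters. Motifs were searched on both strands of the same 250 bases, and the letters searched do not contain one another. The GC box (GGGCGG) was present in 11 of the 18, against 30.5% of all 33469 promoters, and the members' promoters had a median GC content of 61.2%, against 51.2% for all. The SMAD motif (CAGACA) was present in 5, against 17.2%, among them those of Spon2, Loxl1 and Fbn1. The CCAAT box (CCAAT) was present in 7, against 34.0%, the TEAD motif (CATTCC) in 2, against 12.1%, and the glucocorticoid receptor motif (AGAACA) in 1, against 17.5%. The E-box (CACGTG), the TATA box (TATAAA) and the AP-1 motif (TGAGTCA) were present in 0, 0 and 0 of the 18, against 5.59%, 12.9% and 4.05%. These counts describe letters in a short window and were not tested.

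At day 11 the log2 ratio of the members ranged from -2.60 to -0.34 in females, with a median of -0.47, and from -1.86 to -0.34 in males, with a median of -0.46. The medians over all 10408 ranked genes were 0.01 and -0.00. The ratio was lower in females than in males for 57 members and lower in males for 43, and for the named members it was lower in females for 18 of 26. The names come from genes called mostly in females, so nothing is read from the last count. A ratio of -1 or less was seen in females for 12 members, in males for 4 and in both sexes for 2, Spon2 and ENSRNOG00000014409. The choice had no natural gap at its end, since the larger ratio was -0.341311 and -0.341076 for the last 2 members and -0.339519 and -0.337556 for the next 2 genes.

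**Figure D1:**
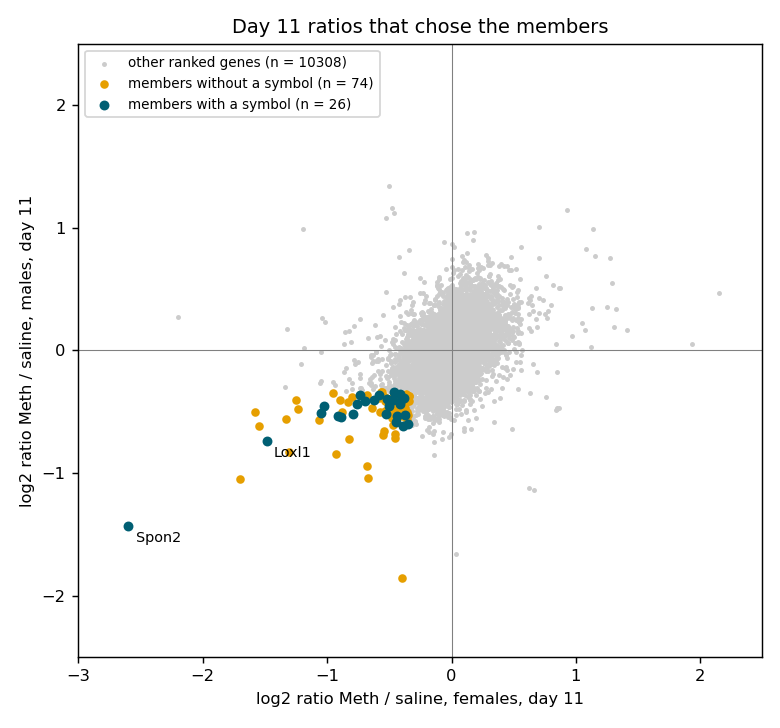
Log2 ratio of mean normalised read counts, methamphetamine over saline, at day 11 in females (horizontal axis) and males (vertical axis) for the 10408 ranked genes. Each point is 1 gene, the 26 members with a symbol are dark, the 74 without are orange, and 2 genes lie outside the axes. The members fill the lower left corner by construction, with Spon2 farthest out in females at -2.60.

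Spon2 had the lowest day 11 ratio, -2.60 in females and -1.43 in males. Values of single libraries are given here in the order of replicates 1, 2, 3, 4 and 6, without replicate 3 for saline-treated females at day 11. The normalised read counts of Spon2 were 134, 153, 172 and 191 in saline-treated females and 24.9, 33.5, 17.7, 23.0 and 30.8 in methamphetamine-treated females. In males they were 82.8, 102.1, 63.4, 79.7 and 58.7 with saline and 21.6, 23.7, 38.2, 23.2 and 33.2 with methamphetamine. The groups did not overlap in either sex, and the saline-treated females lay above all of the saline-treated males.

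Loxl1 had ratios of -1.48 in females and -0.74 in males. In females its normalised read counts were 335, 444, 366 and 484 with saline and 175, 138, 127, 132 and 153 with methamphetamine. In males they were 302, 345, 318, 432 and 489 with saline and 144, 139, 282, 277 and 287 with methamphetamine. The groups were apart in both sexes, but the methamphetamine-treated males fell into 2 libraries near the female level and 3 just under the lowest saline value.

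Fbn1 had ratios of -1.05 in females and -0.51 in males. In females its counts were 1432 to 1816 with saline (1640 ± 159, SD, n = 4) and 688 to 951 with methamphetamine (793 ± 97.9, SD, n = 5). In males they were 1438 to 2108 with saline (1704 ± 305, SD, n = 5) and 867 to 1574 with methamphetamine (1194 ± 274, SD, n = 5), so that the male groups overlapped. The same split was seen for Emilin1 and Col6a2, whose groups were apart in females and overlapped in males. Emilin1 went from 576 ± 46.1 (SD, n = 4) to 355 ± 21.8 (SD, n = 5) in females and from 527 ± 52.8 to 397 ± 51.8 (SD, n = 5 each) in males. Col6a2 went from 2444 ± 231 (SD, n = 4) to 1833 ± 95.03 (SD, n = 5) in females and from 2819 ± 363 to 2205 ± 291 (SD, n = 5 each) in males.

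Plat was one of the 8 named members with the lower ratio in males, at -0.45 in females and -0.58 in males. Its counts were 933 to 1131 with saline and 610 to 777 with methamphetamine in females, and 909 to 1247 with saline and 598 to 746 with methamphetamine in males, without overlap in either sex. Col4a1 had the highest mean count of the 100 members, 6201, a scale on which genes cannot be compared because counts were not divided by transcript length. It stood at 7114 ± 642 (SD, n = 4) with saline and 4744 ± 306 (SD, n = 5) with methamphetamine in females, and at 8351 ± 1387 and 6506 ± 577 (SD, n = 5 each) in males, where the groups overlapped.

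Among the endothelial members, Cd93 stood at 1093 ± 78.1 (SD, n = 4) with saline and 591 ± 70.3 (SD, n = 5) with methamphetamine in females, and at 1223 ± 114 and 839 ± 116 (SD, n = 5 each) in males. Bcl6b stood at 860 ± 178 (SD, n = 4) and 457 ± 65.7 (SD, n = 5) in females and at 909 ± 100.8 and 628 ± 87.3 (SD, n = 5 each) in males. Both genes were without overlap in both sexes, and so was Tgm2, at 3299 ± 181 (SD, n = 4) and 2137 ± 138 (SD, n = 5) in females and 3560 ± 156 and 2693 ± 165 (SD, n = 5 each) in males. The other named members had ratios from -1.02 (Tmem255b) to -0.35 (Tes) in females and from -0.61 (Fxyd6) to -0.34 (Wsb1) in males.

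**Figure D2:**
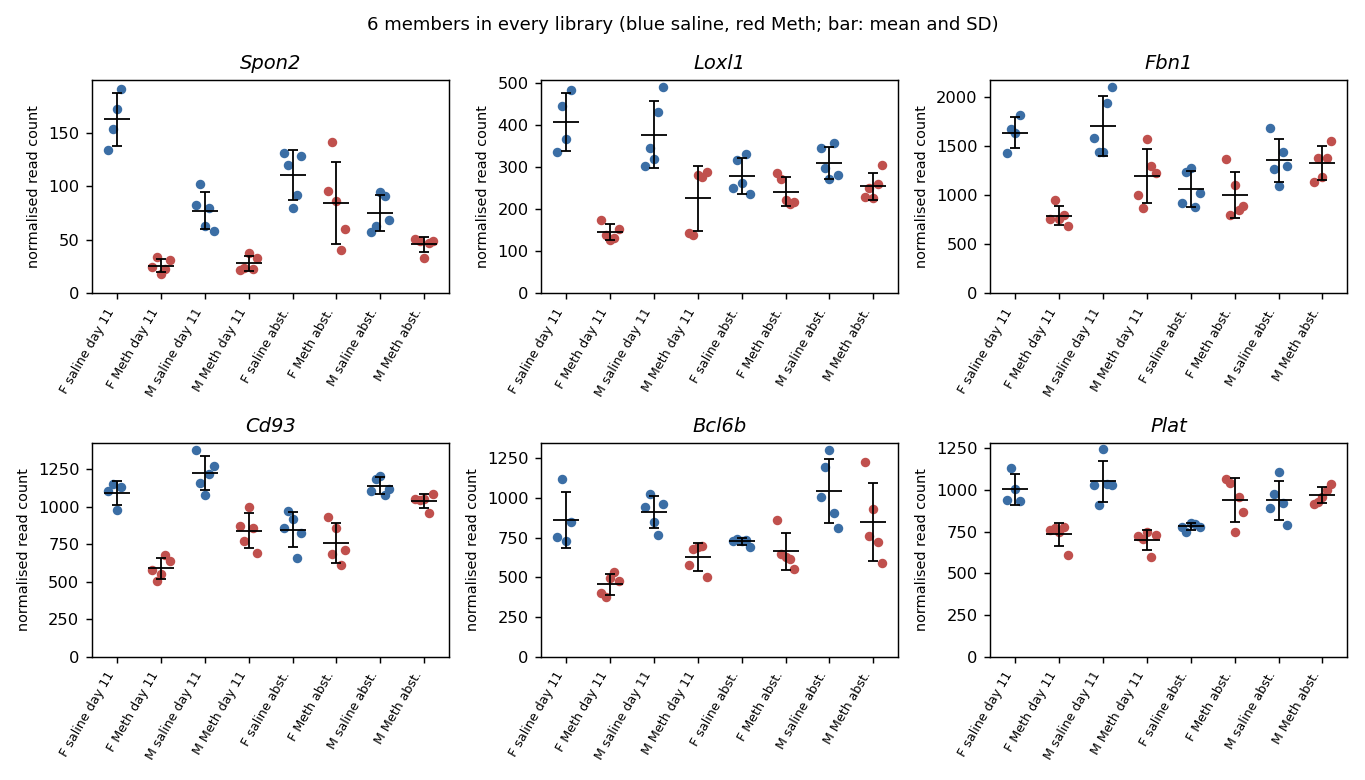
Normalised read counts (vertical axes, from 0) of Spon2, Loxl1, Fbn1, Cd93, Bcl6b and Plat in the 39 libraries without replicate 5, by group, with saline in blue, methamphetamine in red and bars for the mean and SD. At day 11 the methamphetamine groups lie lower, for Spon2 at 17.7 to 33.5 in females against 134 or more with saline, and after abstinence the groups overlap, apart from Spon2 in males.

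ENSRNOG00000014409, second in the ranking, had ratios of -1.70 and -1.05, but its level varied widely within groups. In females at day 11 its counts were 1533, 678, 425 and 163 with saline and 217, 162, 266, 123 and 305 with methamphetamine, which overlap. In the same saline-treated females the count of Myl4, an atrial myosin light chain, was 809.8, 331.8, 123.2 and 52.23, in the same order of libraries, and 26.56 to 49.89 with methamphetamine. In males at day 11 ENSRNOG00000014409 was at 117 to 239 with saline and 52.5 to 107 with methamphetamine. Myl4 was there at 21.12 to 36.69 and 20.61 to 32.46. The part of atrial-type RNA in the ratios of ENSRNOG00000014409 was not tested in either sex.

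Every library of the methamphetamine group lay below every library of the saline group for 68 of the 100 members in females at day 11, where 4.26% of all ranked genes did so, and for 46 members in males, where 3.49% did so. The ratios that chose the members come from these same libraries, so nothing is read from these shares. All 26 named members were without overlap in females and 16 of them in males. Their names come from genes that the study called on these libraries, mostly in females, so nothing is read from these counts either.

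For most cell types the level could not be followed. Of the marker lists for fibroblasts, endothelial cells and ventricular cardiomyocytes, 0 genes had an identifier, so the tissue label could not be checked against defining markers. Only Pdgfrb (pericytes and fibroblasts), Ptprc (leukocytes) and Myl4 had one. At day 11 Pdgfrb was at 1223 to 1644 with saline and 1003 to 1251 with methamphetamine in females, and at 1068 to 1572 and 1135 to 1409 in males. Its part in the lower member levels was not tested, and in whole tissue fewer cells of a type and less RNA per cell cannot be told apart.

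Matrix genes on the lists that were not members show what the choice left out. Of the 20 matrix genes with an identifier, 7 were members, 4 were set aside for their r with Arntl and 9 had a larger ratio that was not among the 100 lowest. Col5a3 (a collagen V chain), Eln (elastin) and Mmp14 (a membrane-type metalloproteinase) had day 11 ratios of -2.30, -2.13 and -1.79 in females and -1.31, -1.11 and -0.88 in males, and were set aside with r of 0.94, 0.85 and 0.84 over 20 libraries. Htra3, Col4a2, Thbs2, Col6a1 and Col15a1 had ratios below 0 in both sexes, with a larger ratio above that of the last member. Adamts12 was lower in females only, at -0.86 against 0.05 in males. The difference between the sexes was not tested here for this gene.

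The exclusion bounded the r of the members with Arntl but did not centre it on 0. Over the 20 abstinence libraries the r of the members with Arntl ranged from -0.57 to 0.60, with a median of 0.28, and was above 0 for 79.0% of members and for 52.2% of all ranked genes. An absolute r of 0.5 or more was found for 16 members, and for 4.78% of all ranked genes. These 20 libraries share the same sequencing pool, and r is given as a description. Group means were not removed, so differences between the groups enter this r. Cd93 had an r of 0.58, Loxl1 of 0.53 and Spon2 of 0.42, whereas that of Plat was 0.12 and that of Islr 0.02.

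After abstinence the question was whether the members still differed between methamphetamine-treated and saline-treated rats. With edgeR's quasi-likelihood test and a Benjamini-Hochberg adjusted p under 0.1 over all genes, 0 of the 100 members were called in females, in males or in both sexes together. Of all genes tested, 0% were called higher and 0% lower in females and in both sexes together, and in males 0.0587% were called higher and 0.044% lower. At an unadjusted p under 0.05, 12 members were higher and 6 lower in females (2.49% and 1.48% of all genes), 3 higher and 9 lower in males (2.53% and 3.41%), and 7 higher and 6 lower in both sexes together (2.57% and 2.51%). Of the members that were higher, 7 of the 12 in females and 6 of the 7 in both sexes together were among the 8 that reached a mean of 50 only through their highest library, so nothing is read from those shares. DESeq2 called 1 member higher in females, where it called 0.108% of all genes higher, and 1 lower in males, where it called 0.232% lower. The member it called higher, ENSRNOG00000006604, was also among those 8, so nothing is read from that share. Limma voom called 1 lower in males, against 0.352% of all genes, and 2 lower in both sexes together, against 0.456%.

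The median log2 fold change of the members after abstinence was -0.06 in females, -0.03 in males and -0.05 in both sexes together, against -0.01, 0.00 and -0.00 over all genes tested. The fold change was below 0 for 68 members in females (52.2% of all genes), 60 in males (49.3%) and 64 in both sexes together (51% of all genes). With the replicate 5 libraries included as labelled, the medians were 0.04, 0.04 and 0.06, so the direction of the small median rested on leaving them out. The effect differed between the sexes for 0 members at an adjusted p under 0.1, while 10 had a higher and 3 a lower effect in females at an unadjusted p under 0.05 (3.2% and 2.06% of all genes). Of those 10, 5 were among the same 8 members, and nothing is read from that share. DESeq2 called 2 members with a higher effect in females, against 0.0796% of all genes.

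**Figure D3:**
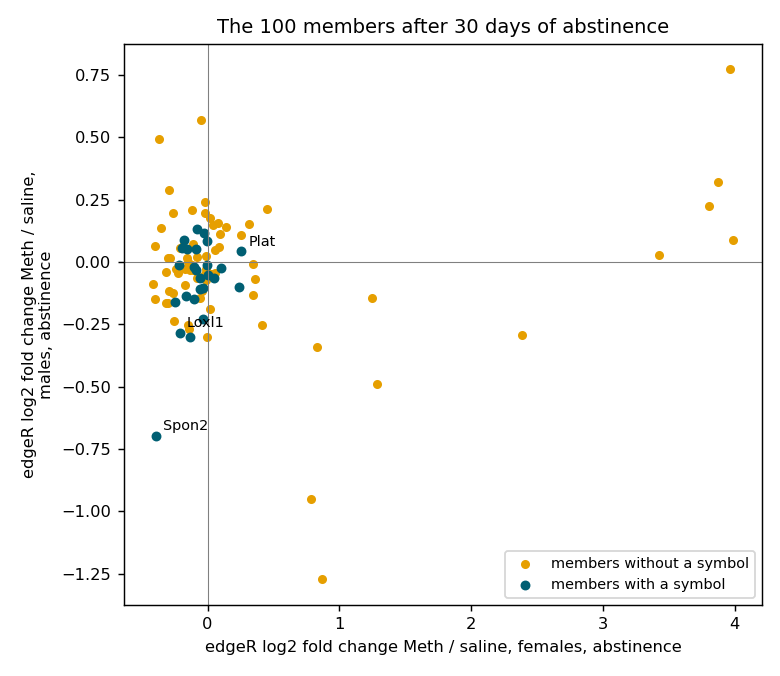
edgeR log2 fold change, methamphetamine over saline, of the 100 members after abstinence in females (horizontal axis) and males (vertical axis), 1 point per member. Most points lie near 0, with medians of -0.06 and -0.03. The points farthest to the right are members without a symbol, such as ENSRNOG00000006604 at 3.99 and ENSRNOG00000029886 at 3.88 in females, and rest on 1 or 2 libraries.

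Spon2 had the lowest fold change of the named members after abstinence. In males its counts were 57.3, 63.4, 94.4, 91.5 and 68.9 with saline and 50.9, 48.8, 33.5, 47.3 and 48.6 with methamphetamine, without overlap, as for 0.538% of all ranked genes. In females they were 131, 120, 79.6, 92.0 and 129 with saline and 95.3, 141, 86.3, 40.2 and 60.1 with methamphetamine, which overlap. The log2 fold change was -0.70 ± 0.17 (SE) in males with an edgeR adjusted p of 0.236, -0.39 ± 0.28 in females and -0.53 ± 0.17 in both sexes with an adjusted p of 0.743. These did not pass the threshold with edgeR, whereas DESeq2 in males gave -0.70 with an adjusted p of 0.0676 and limma voom in both sexes gave -0.64 with an adjusted p of 0.0591. Over all alternatives the adjusted p ranged from 0.0676 to 0.999 in males and from 0.0591 to 1 in both sexes together.

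Loxl1 was at 279 ± 41.9 with saline and 242 ± 33.9 with methamphetamine in females and at 310 ± 38.3 and 254 ± 32.1 in males after abstinence (SD, n = 5 each). Its log2 fold change in both sexes was -0.25 ± 0.08 (SE), with an edgeR adjusted p of 0.743, and it was 0.02 with the replicate 5 libraries included. Of the endothelial members, Cd93 had a fold change of -0.15 ± 0.07 and Bcl6b of -0.22 ± 0.11 in both sexes, each with an adjusted p of 0.969, and that of Cd93 was 0.01 with replicate 5 included. Pcdh12 and Unc5b had fold changes of -0.06 and -0.08. Pdgfrb is no member, since it was set aside for an absolute r of 0.6 or more with Arntl over these libraries. It was at 1156 to 1380 with saline and 1005 to 1196 with methamphetamine in females. In males it was at 1350 to 1464 and 1150 to 1310, without overlap, as for 0.538% of all ranked genes. Its log2 fold change was -0.20 ± 0.08 (SE) in females, -0.23 ± 0.05 in males and -0.21 ± 0.04 in both sexes, with edgeR adjusted p of 0.994, 0.211 and 0.387. The part of pericytes and fibroblasts in the member values after abstinence was not tested. ENSRNOG00000014011 had the lowest p of the members in both sexes together, with a log2 fold change of -0.24 ± 0.06 (SE) and an edgeR adjusted p of 0.694. Its counts were 475 to 584 with saline and 437 to 494 with methamphetamine in females, and 587 to 726 and 478 to 710 in males. ENSRNOG00000014409, second in the ranking, had a log2 fold change of 0.87 ± 0.57 (SE) in females and -1.27 ± 0.47 in males. The edgeR adjusted p was 0.994 and 0.690, and 0.809 for the difference between the sexes.

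Plat was the named member with the highest fold change in females, 0.26 ± 0.10 (SE) with an edgeR adjusted p of 0.994, and in both sexes together it had 0.15 ± 0.07 with 0.941. Its counts after abstinence were 749 to 804 with saline and 745 to 1066 with methamphetamine in females. Fbn1, Emilin1, Col6a2, Col4a1 and Tgm2 had fold changes in both sexes of -0.06, -0.02, -0.05, 0.04 and -0.01. The 7 matrix members had a median of -0.05 in both sexes, and of the 20 matrix genes with an identifier 0 were called, with 8 higher and 12 lower and a median of -0.05.

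Of the other lists, 0 of 4 genes of the TGF-beta pathway, 0 of 3 tubulins and intermediate filaments and 0 of 3 glucocorticoid-induced genes were called after abstinence, and these held no members. Lists of actin cytoskeleton, chaperone, heat shock, complement and fatty acid oxidation genes had 1 identifier each, with 0 called. Of 12 core clock genes, which the exclusion bars from the members for the most part, 4 were called higher and 2 lower in males.

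A few members without a symbol had large positive fold changes in females after abstinence that came from single libraries. ENSRNOG00000029886 was at 2021 in the methamphetamine-treated female replicate 6 and at 42.4 to 88.2 in the other 4 of its group, and at 8.60 to 77.9 in saline-treated females. In all, 4 members were at 1262 to 2021 in that library and at no more than 88.2 in any other without replicate 5. The fitted log2 fold change of ENSRNOG00000029886 was 3.88 ± 1.23 (SE) with an edgeR adjusted p of 0.994, and 0.86 without that library.

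ENSRNOG00000006604 was at 874 and 658 in the methamphetamine-treated female replicates 3 and 4, at 16.4, 50.0 and 107 in the other 3, and at 15.0 to 30.7 in saline-treated females. Its log2 fold change in females was 3.99 ± 0.95 (SE), with an edgeR adjusted p of 0.994, and 3.96 with an adjusted p of 0.0436 by DESeq2. In those 2 libraries Ptprc was at 663.9 and 412.1, against 186.3 to 307.2 in the rest of the group and 176.4 to 214.9 with saline, and Myl4 at 308.3 and 217.5, against 19.25 to 63.01 and 17.19 to 41.12. The part of leukocyte or atrial-type RNA in these values was not tested. Altogether 6 members had a highest library over 10 times their median, as did 0.192% of all ranked genes. All of them were among the members that reached a mean of 50 only through their highest library, so nothing is read from that share.

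When all 8 groups were fitted together with edgeR, 9 members were called higher in females after abstinence, as were 1.05% of all genes. Of these 9, 7 were among the 8 members that reached a mean of 50 only through their highest library, and nothing is read from that share. With replicate 6 of the methamphetamine-treated females left out 5 members and 1.14% of all genes were called higher. With replicates 3 and 4 left out these were 4 members and 0.0482%, and with replicates 3, 4 and 6 left out 0 members and 0%. All of the 4 and some of the 5 were among the same 8 members, so nothing is read from these shares either. Leaving these libraries out of that fit was decided with the values in view.

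In females after abstinence 1 of the 100 members, without a symbol, had every methamphetamine library below every saline library, as did 0.231% of all ranked genes, and in males this held for Spon2 alone.

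The level of the 100 members together was followed in each library as the mean of log2 (normalised read count + 1) over the members, set to 0 at the mean of the 39 libraries. At day 11 it was 0.22 ± 0.09 (SD, n = 4) with saline and -0.39 ± 0.05 (n = 5) with methamphetamine in females, and 0.28 ± 0.05 and -0.23 ± 0.10 (n = 5 each) in males. After abstinence it was -0.03 ± 0.11 and 0.05 ± 0.09 in females and 0.09 ± 0.06 and 0.06 ± 0.07 in males (SD, n = 5 each), so the abstinence groups overlapped and lay between the day 11 groups. With the median over the members in place of the mean, the abstinence values were -0.03 ± 0.11 and -0.08 ± 0.11 in females and 0.10 ± 0.04 and 0.07 ± 0.06 in males (SD, n = 5 each), so the direction in females turned with the summary. The mean count of saline-treated rats after abstinence lay between the 2 day 11 means for 68 members in females and 67 in males, and that of methamphetamine-treated rats for 72 and 74. The members were chosen for a gap between the day 11 means, and no share over all genes was counted. Nothing is therefore read from these counts or from the place of the abstinence groups between the day 11 groups.

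**Figure D4:**
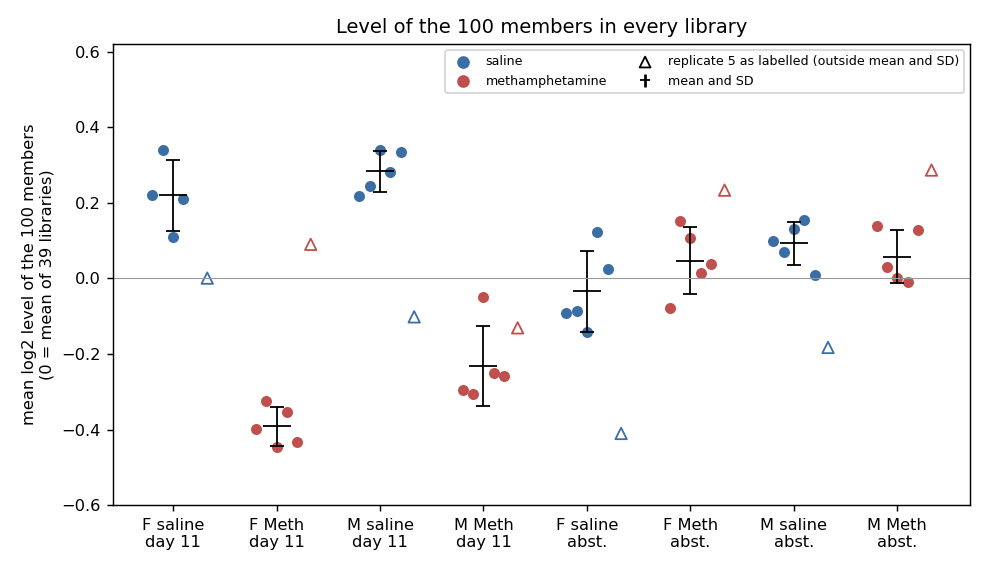
Mean log2 level of the 100 members (vertical axis, 0 at the mean of 39 libraries) in every library, by group, with saline in blue, methamphetamine in red, bars for mean and SD without replicate 5, and replicate 5 as open triangles. The day 11 groups are apart by the choice of members, the abstinence groups overlap, and the triangles lie outside the points of their group in 7 of 8 groups.

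The replicate 5 libraries were not used by the choice and give day 11 values of their own. In the pair labelled female 43 of the 100 members were lower with methamphetamine, against 48.7% of all ranked genes, with a median log2 difference of 0.06. In the pair labelled male 37 were lower, against 50.4%, with a median of 0.09, and 16 were lower in both pairs, against 22.9%. Spon2 was at 69.7 with methamphetamine and 53.4 with saline in the pair labelled female and at 116 and 77.9 in that labelled male, and Loxl1 at 282 and 246, and 238 and 258. Arntl was also outside the other libraries of its group in these 4. It was at 546.4 with methamphetamine (13.45 to 22.13 in the others) and 490 with saline (521.4 to 733.1) in the pair labelled female. In that labelled male it was at 459.4 with methamphetamine (39.26 to 85.78) and 97.14 with saline (121.6 to 353.3).

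After abstinence the replicate 5 pairs showed the members higher with methamphetamine. In the pair labelled female 95 of the 100 were higher, against 47.7% of all ranked genes, with a median log2 difference of 0.54, and in the pair labelled male 80 were higher, against 46.9%, with a median of 0.38. Both pairs were higher for 77 members, against 25.6%. Spon2 was at 63.9 with methamphetamine and 24.4 with saline in the pair labelled female and at 132 and 49.2 in that labelled male. Arntl was at 146.6 with methamphetamine (91.56 to 428.9 in the others) and 70.38 with saline (189.6 to 541.5) in the pair labelled female, and at 513.9 (177 to 490.2) and 90.29 (482 to 620) in that labelled male. In 7 of the 8 replicate 5 libraries Arntl was therefore outside the other libraries of the labelled group. Groups come only from the labels, so no library was reassigned, the differences of these pairs are given as labelled, and no test was made.

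**Figure D5:**
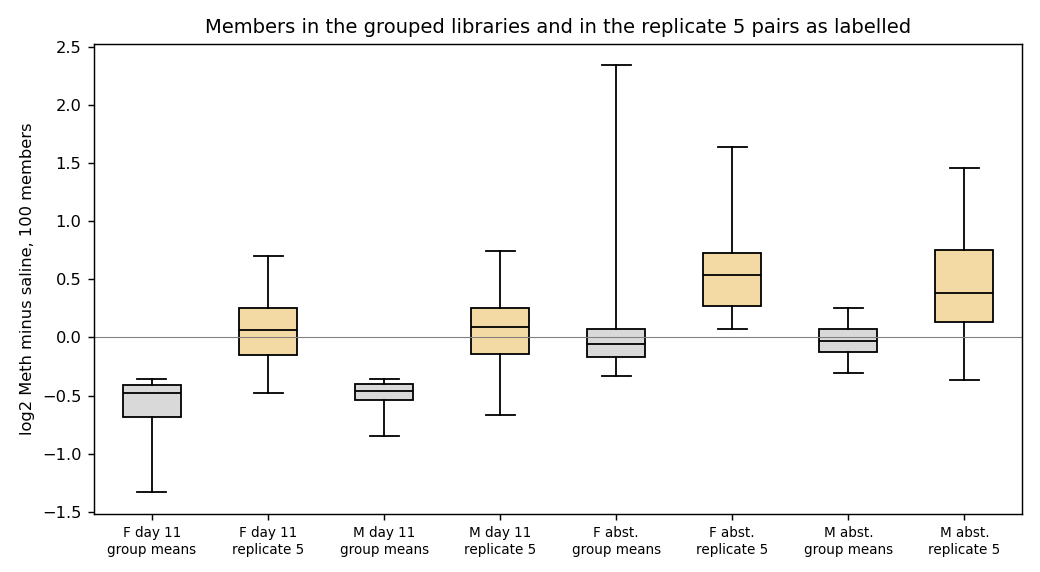
Log2 difference, methamphetamine minus saline, of the 100 members (vertical axis) from group means without replicate 5 (grey) and from the replicate 5 pair as labelled (yellow), by sex and time. Boxes give the quartiles and the median, and whiskers the range from the 5th to the 95th percentile. The day 11 group boxes have medians of -0.47 and -0.46, and the replicate 5 boxes 0.06 and 0.09 at day 11 and 0.54 and 0.38 after abstinence.

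Within the abstinence groups the members did not move as a block. With each group's mean removed, the median r over pairs of members was 0.07 over 20 libraries, against -0.00 for pairs of all ranked genes, and it was 0.23 for pairs of the 26 named members and 0.27 for the 7 matrix members. The r of single members with the mean of the others ran from -0.53 for Col4a1, -0.47 for Cd93 and -0.46 for Fbn1 to 0.63 for Fxyd6 and 0.66 for RGD1563354. These libraries share a pool and their own depth differences, and the values are given as a description.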

How the data were processed

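Left ventricle RNA was sequenced by the authors, who trimmed reads with Trimmomatic 0.38, aligned them with HISAT2 2.1.0 to rn6 and counted them per Ensembl gene. The authors deposited a count table without normalization and a table of normalized signal, which holds the same counts divided by a size factor per library. The normalized signal was used to choose and describe the members and the counts for the tests. The members and the lists were chosen with earlier results of these data known.

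Libraries were grouped by their labels, and replicate 5 of each group was left out. Methamphetamine was compared with saline after abstinence by edgeR 4.0.16 quasi-likelihood tests (R 4.3.3, TMM, filterByExpr) in females, in males, in both sexes with sex as a term, and as a sex by treatment interaction. Each was fitted on all genes past the filter, with a call at a Benjamini-Hochberg adjusted p under 0.1. The SE given with a fold change was computed as its absolute value divided by the square root of the test's F statistic. It is not an estimate that edgeR gives. Alternatives were DESeq2 1.42.0, limma 3.58.1 voom with quality weights, RLE factors, other filters, a threshold of 0.05, replicate 5 included, a replicate block, a block for the series of rat numbers in females, all groups in a single fit, and each library left out. No 2 libraries of a group agreed within sampling noise (chi-square per degree of freedom of at least 2.31). The tests were tried on simulated data.

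Named members were the 10 with the lowest larger ratio (identifiers are given for only 4 members without a symbol), the 5 with the highest mean count, up to 4 in each list, the 5 with the lowest p in both sexes after abstinence, and those just inside and outside the last rank. The remaining members with a symbol were added. No identifiers of rn6 could be paired with names beyond 328 genes, so positions are given only for promoters.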

Additional observations from a re-analysis of the deposited data

Results flagged for a closer look

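Of 88 groups of 4 to 6 libraries examined, 8 held a library that stood apart by Dixon's criterion, which chance alone gives in about 5% of groups. For the mean level of the members, replicate 5 stood apart in methamphetamine-treated females at day 11 (0.0903, next highest -0.325) and in saline-treated males at day 11 (-0.101, next lowest 0.217). Spon2 stood apart in methamphetamine-treated males after abstinence with 33.5 in replicate 3, next to 47.3. Col4a1 stood apart in methamphetamine-treated females at day 11 with 5284 in replicate 4, next to 4651. ENSRNOG00000014409 stood apart in saline-treated females after abstinence with 622 in replicate 4, next to 192. ENSRNOG00000014011 stood apart in methamphetamine-treated females at day 11 with 570.3 in replicate 6, next to 422. ENSRNOG00000029886 stood apart in methamphetamine-treated females with 30.4 in replicate 2 at day 11, next to 17.3, and with 2021 in replicate 6 after abstinence, next to 88.2.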

How the results depend on the processing

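The choice of members depended most on the minimum mean count: 23 of the 100 stayed members at a mean of 10 or more and 41 at 200 or more, against 70 to 99 under the other settings of the rule and 79 to 95 with a day 11 library left out. With replicate 5 alone the median day 11 ratio of the members was 0.063 in females and 0.092 in males. After abstinence DESeq2 called 1 member in females, 1 in males and 2 for the difference between the sexes (20, 68 and 30 of all genes), limma voom 1 in males and 2 in both sexes (77 and 82), and a single fit of all groups 9 in females (163), which became 5 without replicate 6, 4 without replicates 3 and 4 and 0 without all of them. Of these calls, the DESeq2 call in females and 7 of the single fit's 9 reached a mean of 50 only through their highest library. So did all of the 4 without replicates 3 and 4. Nothing is read from those counts. In females a block for rat number series gave a median of -0.13, against -0.06, and 0 calls of members. Leaving out each library gave 0 calls of members in females and for the difference between the sexes. It gave 0 to 1 in males and in both sexes. The 1 in males came without replicate 6 of the methamphetamine group, where 29 of all genes were called higher and 33 lower. The 1 in both sexes came without replicate 1 of the methamphetamine-treated males, where 2 of all genes were called higher and 5 lower. This member was ENSRNOG00000014011 at -0.29 with an edgeR adjusted p of 0.0878. With replicate 5 included the median was 0.043 in males and 0.055 in both sexes. The same setting turned Loxl1 to 0.0230 in both sexes and 0.0280 in males, and Cd93 to 0.0124 in both sexes. Leaving out single libraries gave medians of -0.125 to -0.012 in females, -0.048 to -0.004 in males and -0.072 to -0.016 in both sexes. The causes of these changes were not tested.

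With the replicate block 0 members were called in any comparison, while calls over all genes in males went from 14 to 30. Same-numbered libraries had r of -0.478 to 0.163 in their deviations from group means, over 0.1 in 2 of 10 pairs. Of 20 libraries, 2 correlated best with their own number. The authors divided each litter over all groups, but the labels give no litter, so a shared litter was not tested. With 5 libraries a group, changes of the size of the median member could not be resolved gene by gene.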
